A study of Homo sapiens with 6 samples.

Results

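The ETS factors examined here were ERG and 9 relatives, ETV1, ETV4, ETV5, ETS1, ETS2, FLI1, ELF3, EHF and SPDEF, measured in VCaP cells after knockdown of PRMT5. Every array probe set whose annotation named exactly 1 of these 10 symbols was taken, which gave 42 of the 54675 probe sets on the array. VCaP, an established cell line from a human prostate cancer, expresses ERG from a fusion to the androgen-driven TMPRSS2 promoter region. The cells held a hairpin under doxycycline control: a non-targeting hairpin (NTC), PRMT5 shRNA 1 or PRMT5 shRNA 2, with 2 arrays in each of the 3 groups. Every group, NTC included, had received doxycycline at 100 ng/ml over 3 days in serum-containing medium, and no uninduced cells were measured, so each comparison is between hairpins. The labels do not state whether the replicates were separate cultures or whether a hairpin line was 1 clone, so the p-values reflect no more than the spread of these samples, and that spread may be technical. The comparisons asked how ERG and its relatives stood when PRMT5, an arginine methyltransferase of histones and splicing proteins, was lowered in an ERG-positive prostate cancer cell.

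ETS factors share a winged helix-turn-helix domain that binds DNA around a GGAA core. In prostate cancer the TMPRSS2 fusion places ERG, and less often ETV1, ETV4 or ETV5, under androgen control. Others belong to the normal epithelium: SPDEF, EHF and ELF3 are expressed in luminal and secretory cells, whereas ETS1 and FLI1 are best known from endothelial and blood cells. ETS1 and ETS2 are substrates of ERK, and ETV1, ETV4 and ETV5 are transcribed downstream of it.

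For the members that changed alike with both hairpins and had an entry in the RefSeq promoter table (GRCh38.p14), ETS2 and SPDEF, the 250 bases before each listed start are shown on the gene's strand, because the GGAA core that these factors bind can be seen there. Capitals mark GGAA, or TTCC where the core lay on the other strand. The first ETS2 window was chr21:38804933-38805182 (+ strand), the second chr21:38805679-38805928 (+ strand), and the SPDEF window chr6:34556330-34556579 (- strand).
ETS2 start 1: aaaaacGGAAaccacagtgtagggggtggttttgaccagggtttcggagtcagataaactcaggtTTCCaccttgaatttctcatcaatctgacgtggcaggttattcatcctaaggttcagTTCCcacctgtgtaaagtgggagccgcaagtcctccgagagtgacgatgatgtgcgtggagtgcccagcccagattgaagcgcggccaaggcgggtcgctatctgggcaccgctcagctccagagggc
ETS2 start 2: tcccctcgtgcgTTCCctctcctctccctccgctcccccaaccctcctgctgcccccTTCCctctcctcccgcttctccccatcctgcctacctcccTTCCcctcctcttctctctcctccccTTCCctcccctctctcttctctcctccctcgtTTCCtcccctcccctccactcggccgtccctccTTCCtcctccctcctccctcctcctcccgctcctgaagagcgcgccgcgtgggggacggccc
SPDEF start 1: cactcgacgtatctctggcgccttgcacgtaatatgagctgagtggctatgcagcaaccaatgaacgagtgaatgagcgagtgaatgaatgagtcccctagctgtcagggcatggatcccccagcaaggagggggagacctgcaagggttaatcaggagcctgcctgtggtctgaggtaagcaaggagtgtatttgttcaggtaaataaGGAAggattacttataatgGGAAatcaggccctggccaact
GGAA on either strand was present in 92.7% of the 35116 windows of this length, with a median of 3 matches, so its presence is no property of these genes. The first ETS2 window held 3 matches and the SPDEF window 2. The second ETS2 window held 6, all on the other strand, a number reached by 9.14% of windows. The octamer TGAATGAA or TGAATGGA, which the CIC repressor binds, was searched on both strands and lay in 2.19% of windows. The SPDEF window held 1, starting at base 82, and neither ETS2 window held one. Among the member windows not shown, that of ETV1 start 6 also held 1, starting at base 126. These matches describe the letters of the windows and not sites of binding.

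Probe set intensities had been scaled by the authors to an equal trimmed mean, and the median probe set of an array read 14.8 to 16.4. A probe set was tested where 2 or more of the 6 arrays showed it at or above their own median, and a gene was represented by its brightest such probe set, which gave 12413 genes and 23920 probe sets. Differences are given as log2(intensity + 16) with the standard error (SE), and a gene was called at a Benjamini-Hochberg adjusted p under 0.05 in limma over all features tested. The correlation between arrays was 0.996 to 0.997 within a group and 0.976 to 0.991 across groups. PRMT5 itself read 809.8 and 880.5 with NTC, 135.6 and 133.8 with PRMT5 shRNA 1, and 291.2 and 321.0 with PRMT5 shRNA 2, or 15.9% and 36.2% of the NTC mean, so the second hairpin left more PRMT5 transcript. All 7 prostate luminal markers with a probe set passed the intensity filter, whereas 0 of 6 endothelial markers did. The summed intensity of those 6 was 20.9 to 29.6 with NTC, 34.1 to 36.1 with shRNA 1 and 26.9 to 31.3 with shRNA 2. Of 4 leukocyte markers only LYZ passed, and their sum was 39.4 to 46.4, 141.7 to 142.5 and 81.4 to 89.2 in the same order. Of 4 fibroblast markers LUM and COL1A1 passed, and the sum was 472.3 to 505.5, 983.8 to 1054.9 and 713.0 to 802.8. LUM carried that sum (468.5 and 428.3 with NTC, 942.9 and 1020 with shRNA 1), while COL1A1 read 29.7 and 35.8 with NTC and 30.5 and 24.6 with shRNA 1. The luminal sum was 9427.1 to 9759.9, 11432.2 to 11837.3 and 11068.6 to 12258.3. In it KLK3, KLK2, KRT8 and KRT18 were above NTC on every knockdown array. TMPRSS2 and HOXB13 were below NTC with shRNA 1, and FOLH1 overlapped NTC there. The sum of 4 neuroendocrine markers was 1333.5 to 1361.8, 1020.4 to 1034.4 and 1200.2 to 1244. With shRNA 2 only INSM1 of these was below NTC (547.9 and 569.9 against 737.5 and 720.2). CHGA (71.1 and 67.9 against 55.1 and 59) and SYP (280.9 and 254.1 against 246.2 and 241.8) were above it, and ENO2 overlapped it. Of 2 basal epithelial markers only KRT14 passed, and their sum was 38.3 to 51.7, 27.9 to 30.7 and 43.9 to 54.4. The 4 sums, of leukocyte, fibroblast, luminal and neuroendocrine markers, did not overlap between NTC and either hairpin. The endothelial and basal sums were apart from NTC only with shRNA 1. The part of all these markers in the results was not tested.

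Of the 42 member probe sets, 21 passed the intensity filter, from 6 genes, and each of those 21 reached the array median on all 6 arrays. ERG, EHF, ELF3, SPDEF and ETS2 each had a probe set above 200 on every array, and ETS1 had a single probe set between 19.5 and 49.2. ETV1, ETV4, ETV5 and FLI1 passed with none. Their 18 probe sets read 0.1 to 12.5, and the other 3 that failed, from ETS1 and ETS2, read at most 17.8. These genes had only a background-level signal in every group and were not tested, so no direction can be given for them.

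**Figure D1:**
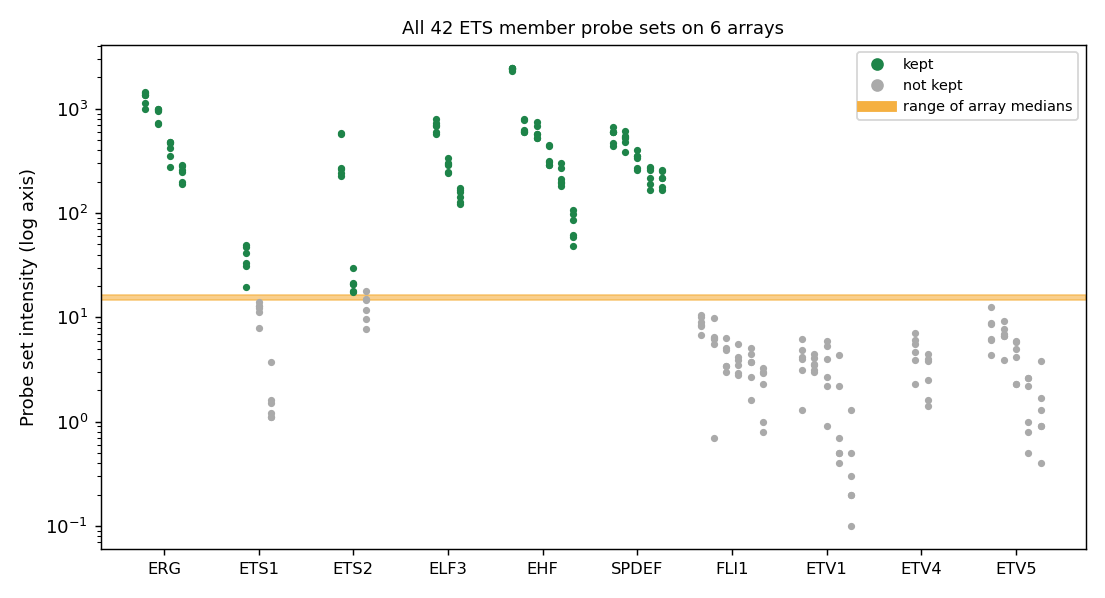
Intensity (log axis) of all 42 probe sets of the 10 ETS genes on the 6 arrays, coloured by whether the probe set passed the intensity filter. The band marks the range of the array medians. The 18 probe sets of ETV1, ETV4, ETV5 and FLI1 stay at 12.5 or below on every array, while EHF reaches 2483.7 and ERG 1446.4; heights of different probe sets are not comparable as transcript levels.

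With both hairpins averaged, 4 of the 6 tested members were called. ETS2, ERG and ETS1 fell and SPDEF rose. Over all 12413 genes 32.4% were called in that comparison, 15.4% higher and 17.0% lower. With PRMT5 shRNA 1 the called members were again 4 (ETS2, ERG and ELF3 lower, SPDEF higher), against 39.3% of all genes (16.2% higher, 23.1% lower). With PRMT5 shRNA 2 they were 3 (ETS2 and ETS1 lower, SPDEF higher), against 21.4% (13.1% higher, 8.39% lower). The median log2 difference of the 6 members was -0.13 for the average (all genes -0.01), -0.27 for shRNA 1 (all genes -0.04) and 0.01 for shRNA 2 (all genes 0.01). With single arrays left out, the averaged difference ranged from -1.18 to -1.14 for ETS2 and from 0.39 to 0.48 for SPDEF. It ranged from -0.25 to -0.17 for ERG and from -0.58 to -0.34 for ETS1. The members were therefore not shifted together, and the direction depended on the gene. The comparisons of the hairpins with NTC share the same 2 control arrays.

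**Figure D2:**
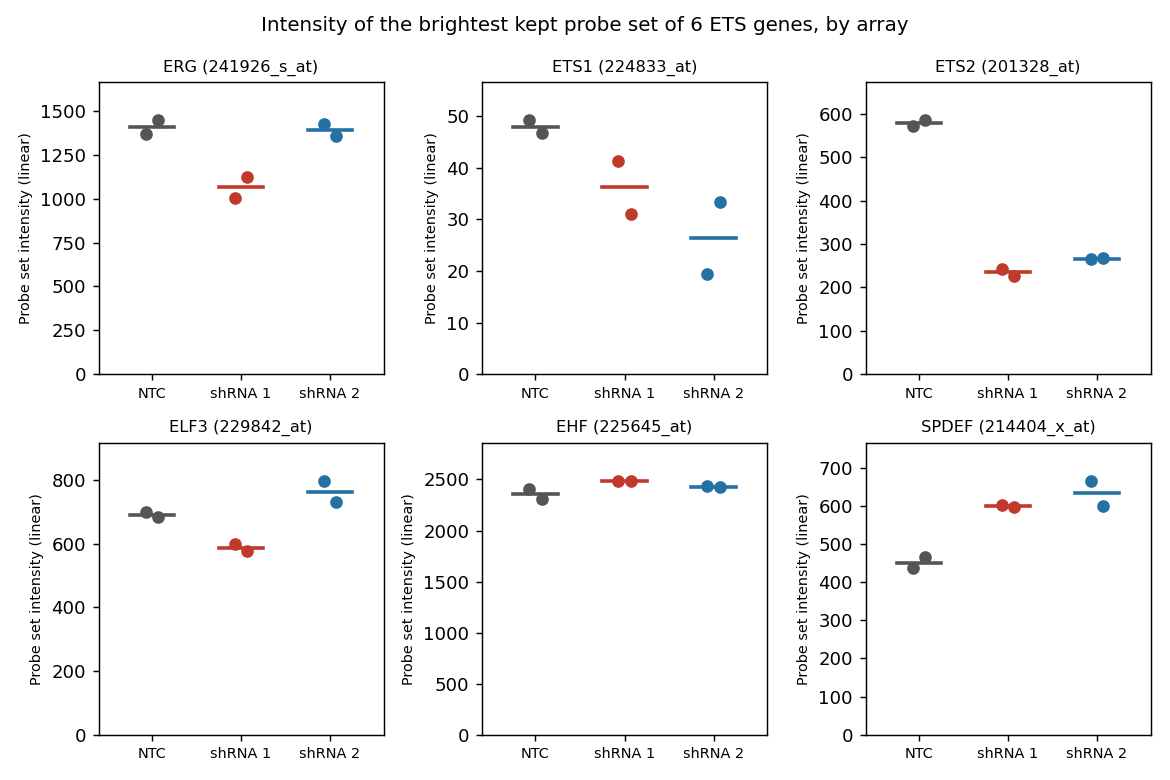
Intensity of the brightest probe set of each of the 6 tested ETS genes on each array (points) with group means (lines) in NTC, PRMT5 shRNA 1 and PRMT5 shRNA 2, linear axes from 0. All 4 knockdown arrays of ETS2 lie below NTC and all 4 of SPDEF above it. For ERG and ELF3, both arrays of a hairpin lie below NTC only with shRNA 1. For ERG, PRMT5 shRNA 2 replicate 2 (1354.7) also lies below both NTC arrays.

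ETS2, an ERK-responsive factor encoded beside ERG on chromosome 21, had the largest change among the tested members. It read 571.6 and 585.4 with NTC, 243.1 and 227.3 with PRMT5 shRNA 1, and 264.9 and 268.5 with PRMT5 shRNA 2. All 4 knockdown arrays were below both NTC arrays, and the shRNA groups did not overlap either. The group means were 40.7% of NTC with shRNA 1 and 46.1% with shRNA 2. The log2 difference was -1.24 ± 0.07 (SE, limma adjusted p = 4.36e-07) for shRNA 1 and -1.07 ± 0.07 (adjusted p = 1.86e-06) for shRNA 2. The difference between the hairpins, 0.17 ± 0.07, was not called (limma adjusted p = 0.11), although PRMT5 itself differed between them by 1.09 ± 0.08 (limma adjusted p = 8.00e-05). A second ETS2 probe set close to background read 29.5 and 21.5, then 18.1 and 17.5, then 21.1 and 21.1. It was lower in the knockdown arrays but was not called (-0.29 and -0.15 for the hairpins, limma adjusted p = 0.084 and 0.42). The fall of ETS2 thus rested on 1 well-measured probe set. It was called under each alternative setting and with each array left out.

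**Figure D3:**
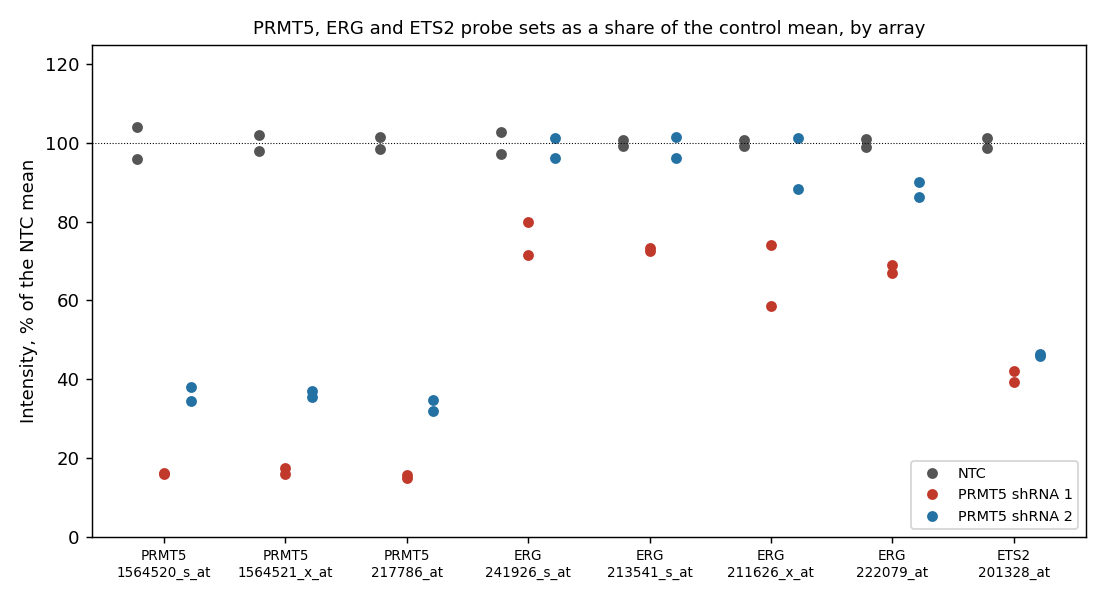
Intensity on each array as a percentage of the NTC mean for PRMT5, ERG and ETS2. On the brightest probe set of each gene, PRMT5 falls to 15.9% with shRNA 1 and 36.2% with shRNA 2, and ETS2 to 40.7% and 46.1%. The brightest ERG probe set stands at 75.7% with shRNA 1 but 98.8% with shRNA 2. The other ERG probe sets stand at 66.4% to 72.9% with shRNA 1 and 88.1% to 98.9% with shRNA 2.

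ERG, the fusion oncogene of these cells, differed between the hairpins. Its brightest probe set read 1366.9 and 1446.4 with NTC, 1004.7 and 1125.1 with PRMT5 shRNA 1, and 1424.3 and 1354.7 with PRMT5 shRNA 2. Both shRNA 1 arrays were below all others, and the shRNA 2 arrays overlapped NTC. The level with shRNA 1 was 75.7% of NTC (-0.40 ± 0.07 SE, limma adjusted p = 0.0010), and with shRNA 2 it was 98.8% (-0.02 ± 0.07, adjusted p = 0.89). The hairpins differed by 0.38 ± 0.07 (limma adjusted p = 0.0035). In the comparison of shRNA 2 with shRNA 1, 2 of the 6 members were called, ERG and ELF3, both higher with shRNA 2, against 25.7% of all genes (18.3% higher, 7.38% lower).

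The other ERG probe sets gave the same split. The second in brightness read 981.2 and 995.4 with NTC, 723.6 and 717.7 with shRNA 1, and 1002.9 and 951.7 with shRNA 2. The third read 470.4 and 478.2, 278.4 and 351.4, and 480.9 and 419.2, and the fourth 282.9 and 289.2, 191.8 and 197.5, and 257.4 and 246.8. In every one of the 4, both shRNA 1 arrays were below all other arrays, and on the fourth the shRNA 2 arrays were also below NTC. Separation of shRNA 1 from NTC, in either direction, was common and not particular to ERG. It held for 21 of the 21 tested member probe sets and 18 of 25 from the remaining ETS genes. Among genes that control ETS transcription or turnover it held for 22 of 35. The share of all probe sets is not given here. For shRNA 1 the log2 differences ran from -0.58 to -0.40 and all 4 were called, whereas for shRNA 2 they ran from -0.17 to -0.02 and none was (limma; the lowest adjusted p was 0.14). The difference between the hairpins was called on all 4, at 0.35 to 0.50. The 4 probe sets read transcripts of 1 gene and are not replicates, and the annotation does not place them on the fused or the unfused transcript.

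The fall with shRNA 1 kept its call under each alternative setting that tested this hairpin on its own. For the average of both hairpins (-0.21 ± 0.06, limma adjusted p = 0.020) the call was lost without NTC replicate 1 (-0.25, adjusted p = 0.055), without NTC replicate 2 (-0.17, adjusted p = 0.18) and without PRMT5 shRNA 1 replicate 1 (-0.17, adjusted p = 0.057). It was also lost in a fit without the intensity trend (adjusted p = 0.062) and with both hairpins taken as 1 group (adjusted p = 0.32). A quality ratio moved with the hairpins as ERG and ELF3 did: the 3' to 5' signal of the ACTB controls was 4.581 and 4.876 with NTC, 3.489 and 3.884 with shRNA 1, and 5.718 and 4.995 with shRNA 2. The same ratio for GAPDH was 1.257 and 1.332 with NTC, 1.205 and 1.23 with shRNA 1, and 1.229 and 1.219 with shRNA 2. It was thus lower on every knockdown array than with NTC, by a small margin. The part of RNA quality in the results of ERG, ELF3 and the other members was not tested.

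By the smallest distance over the 6 arrays between NTC-centred log2 values, the tested genes most like ERG were TRIM27 (distance 0.083), DHX9-AS1 (0.093), TXNL4A (0.096), TAF1C (0.097) and TCHP (0.10). DHX9-AS1 is antisense to DHX9, and whether its probes separate the pair is not known here. The genes most like ETS2 were RHOBTB1 (0.17), SRGAP3 (0.18), GPR173 (0.19), DACH1 (0.21) and ADGRF5 (0.24). These neighbours depended on the scale: of the 5 for ERG, 3 remained with a pseudocount of 1, 2 with 64 and 0 after quantile normalization. Of the 5 for ETS2, 3, 0 and 4 remained.

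ETS1, a paralogue of ETS2, was measured near background. It read 49.2 and 46.8 with NTC, 41.3 and 31.1 with PRMT5 shRNA 1, and 19.5 and 33.4 with PRMT5 shRNA 2. All knockdown arrays were below NTC, and the shRNA groups overlapped. The log2 difference was -0.61 ± 0.16 (limma adjusted p = 0.018) with shRNA 2 and -0.30 ± 0.16 (adjusted p = 0.15) with shRNA 1. The difference between the hairpins was not called (-0.31 ± 0.16, limma adjusted p = 0.17). The shRNA 2 call was lost without NTC replicate 1, NTC replicate 2 or PRMT5 shRNA 2 replicate 1, where the difference was -0.64 to -0.37 (limma adjusted p from 0.056 to 0.12). The averaged fall (-0.46 ± 0.14, limma adjusted p = 0.026) was lost without either NTC array, PRMT5 shRNA 1 replicate 2 or PRMT5 shRNA 2 replicate 1 (-0.48 to -0.34, adjusted p from 0.050 to 0.13).

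SPDEF, a factor of secretory and luminal prostate epithelium, rose with both hairpins. Its brightest probe set read 436.2 and 465.1 with NTC, 602.4 and 598.0 with PRMT5 shRNA 1, and 664.5 and 600.1 with PRMT5 shRNA 2. Every knockdown array was above every NTC array, and the shRNA groups overlapped. The level was 133% of NTC with shRNA 1 (0.40 ± 0.07 SE, limma adjusted p = 0.0014) and 140% with shRNA 2 (0.47 ± 0.07, adjusted p = 0.00078). The hairpins differed by 0.07 ± 0.07, which was not called (limma adjusted p = 0.49). The summed luminal markers were higher with both hairpins too, at 11068.6 or above on every knockdown array and 9759.9 or below with NTC. In that sum KLK3 read 1186.4 and 1168.9 with NTC, 2587.2 and 2665.6 with shRNA 1, and 2674.3 and 2464.8 with shRNA 2. TMPRSS2 and HOXB13, of the same list, were below NTC with shRNA 1, so the sum does not stand for every luminal marker. The part of these markers was not tested.

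The other 4 SPDEF probe sets were also called higher with each hairpin. Over all 5, the log2 difference was 0.31 to 0.52 with shRNA 1 and 0.42 to 0.47 with shRNA 2. The second in brightness had the most uneven controls, 384.8 and 475.9, against 537.7 and 527.5 with shRNA 1 and 616.7 and 546.0 with shRNA 2. Without NTC replicate 1 that probe set was 0.16 higher with shRNA 1 and was not called (limma adjusted p = 0.27). The brightest and the third kept their calls with each array left out, and the other 3 each lost a call without at least 1 array. All 5 carry the array maker's suffix for probes that may cross-hybridise with other transcripts, so no SPDEF probe set free of that mark was measured.

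For the epithelial factors EHF and ELF3 the result depended on the probe set. For EHF, an epithelial ETS factor, the brightest probe set read 2410.6 and 2311.7 with NTC, 2482.4 and 2483.7 with PRMT5 shRNA 1, and 2436.7 and 2422.6 with PRMT5 shRNA 2. The knockdown arrays were all slightly above NTC, but neither hairpin was called (0.07 ± 0.05 and 0.04 ± 0.05, limma adjusted p = 0.27 and 0.60). The other 5 EHF probe sets differed from it with shRNA 1. The second read 626.0 and 592.4 with NTC, 801.0 and 776.0 with shRNA 1, and 612.7 and 594.7 with shRNA 2. The fourth read 307.8 and 288.8, 439.9 and 453.9, and 290.6 and 313.0. On these the shRNA 1 arrays stood above all others, and the shRNA 2 arrays overlapped NTC.

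All 5 of those EHF probe sets were called higher with shRNA 1, by 0.36 to 0.77, and none was called with shRNA 2. On 4 of them the difference between the hairpins was called, at -0.54 to -0.37. The dimmest read 48.1 and 58.9 with NTC, 107.2 and 97.7 with shRNA 1, and 86.7 and 62.3 with shRNA 2, and its hairpin difference was not called (-0.40, limma adjusted p = 0.053). With the log2 values of all EHF probe sets averaged, the gene was 0.45 higher with shRNA 1 (limma adjusted p = 0.00031). The EHF result therefore depended on which probe set was read, and where each one lies on the transcript is not given in the sources used here.

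ELF3, an epithelium-specific factor, read 700.3 and 682.7 with NTC, 598.0 and 577.6 with PRMT5 shRNA 1, and 796.2 and 730.4 with PRMT5 shRNA 2. The shRNA 1 arrays were the lowest and the shRNA 2 arrays the highest. The fall with shRNA 1 was -0.23 ± 0.07 (limma adjusted p = 0.019), and the difference with shRNA 2, 0.14 ± 0.07, was not called (adjusted p = 0.17). The hairpins differed by 0.37 ± 0.07 (limma adjusted p = 0.0037). A second probe set read 288.5 and 292.4 with NTC, 241.3 and 246.2 with shRNA 1, and 336.8 and 302.9 with shRNA 2, the same order. The third did not follow them: it read 121.8 and 127.4, 173.7 and 142.1, and 166.9 and 158.1, above NTC on every knockdown array, and was called higher with both hairpins (0.30 and 0.34, limma adjusted p = 0.039 and 0.038). Its shRNA 1 call was lost without NTC replicate 1 (0.27, limma adjusted p = 0.16), NTC replicate 2 (0.33, 0.092) or PRMT5 shRNA 1 replicate 1 (0.17, 0.29), and its shRNA 2 call without any 1 of the 4 arrays compared (0.31 to 0.38, adjusted p from 0.064 to 0.17). The fall with shRNA 1 on the brightest probe set lost its call without any 1 of the 4 arrays compared (-0.25 to -0.20, limma adjusted p from 0.052 to 0.11). With the ELF3 probe sets averaged it was -0.06 (adjusted p = 0.51), and shRNA 2 was then called higher (0.20, adjusted p = 0.044). The difference between the hairpins on the brightest probe set kept its call with each array left out.

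**Figure D4:**
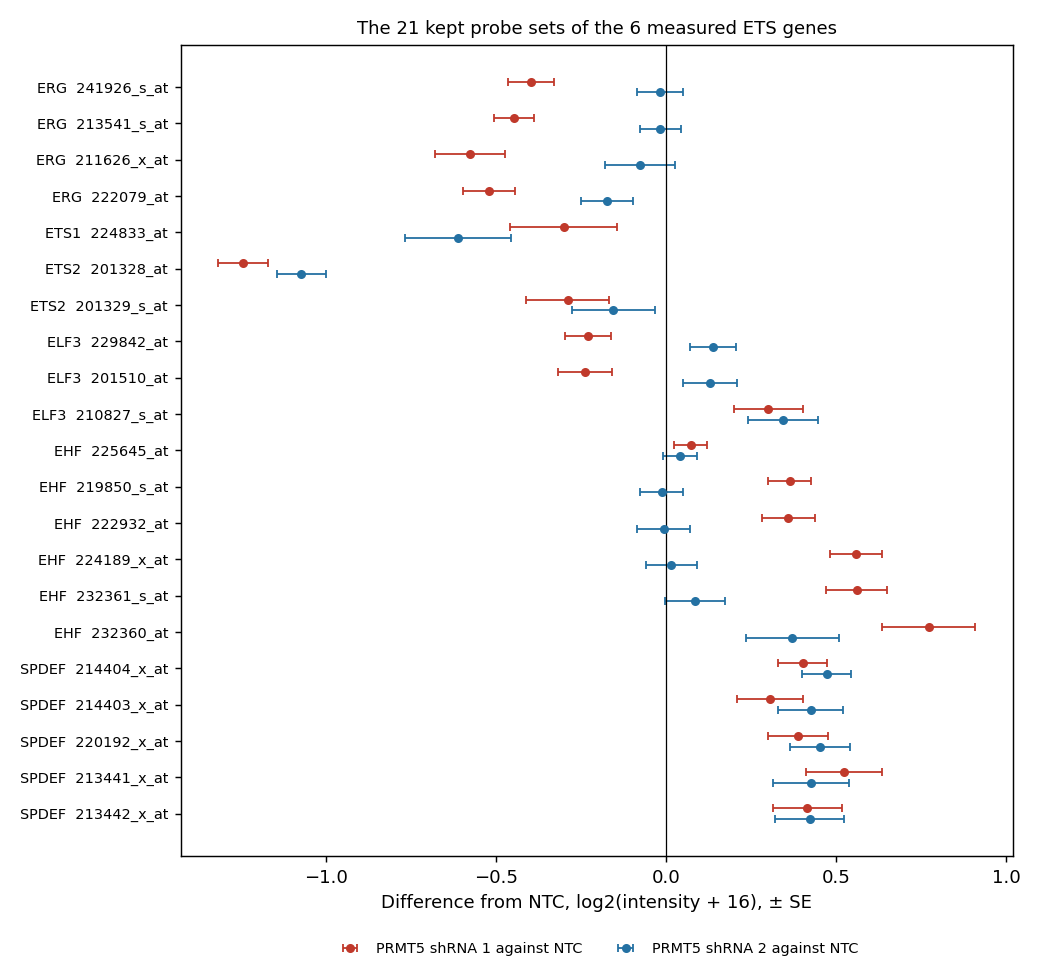
Log2 difference from NTC of the 21 tested member probe sets for PRMT5 shRNA 1 and PRMT5 shRNA 2, with standard errors. The 4 ERG probe sets lie at -0.58 to -0.40 with shRNA 1 and at -0.17 to -0.02 with shRNA 2, the 5 SPDEF probe sets lie above 0 with both, and EHF and ELF3 probe sets of the same gene lie apart.

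Counted by probe set, 16 of the 21 members were called for the average of both hairpins (10 higher, 6 lower), where 29.1% of all probe sets were called (14.1% higher, 14.9% lower). With shRNA 1 they were 18 (11 higher, 7 lower) against 37.2% (17.6% and 19.6%). With shRNA 2 they were 8 (6 higher, 2 lower) against 18.2% (9.99% and 8.19%). Between the hairpins they were 10 (6 higher, 4 lower) against 25.4% (13.9% and 11.5%). Probe sets of 1 gene share their target, so these counts weigh EHF, SPDEF and ERG most. They also include opposite calls within 1 gene, as for ELF3 with shRNA 1. The counts for the average and for shRNA 2 fell without either NTC array, and that for shRNA 2 also without PRMT5 shRNA 2 replicate 1. The calls over all genes fell in those refits too. Of the probe sets without the suffixes for shared or cross-hybridising probes, 8 were left, and the called ones were 4, 6, 2 and 4 in the same order. The share of all probe sets called under that filter is not given here, so these counts have no matching background.

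The remaining ETS genes were counted as a list of 18, of which 17 had a probe set and 13 were tested. For the average, 3 rose (FEV, ELF2 and ELK3) and 2 fell (ETV6 and ELF1), where 15.4% of all genes were called higher and 17.0% lower. ETV6, a transcriptional repressor, read 244.4 and 239.7 with NTC, 117.4 and 118.8 with PRMT5 shRNA 1, and 142.4 and 162.4 with PRMT5 shRNA 2. All knockdown arrays were below NTC, at 48.8% and 63.0% of its mean (-0.94 ± 0.09 and -0.62 ± 0.09, limma adjusted p = 1.83e-05 and 0.00057). FEV, a close relative of ERG and FLI1, was dim and read 26.0 and 21.1, 45.8 and 41.3, and 38.7 and 52.0. All its knockdown arrays were above NTC (0.61 ± 0.11 for the average, limma adjusted p = 0.0020).

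The other called members of that list changed less or with 1 hairpin. ELF2, an ELF1 relative, rose by 0.43 ± 0.10 with shRNA 1 and 0.31 ± 0.10 with shRNA 2 (limma adjusted p = 0.0062 and 0.046). ELK3, a ternary complex factor that works with SRF, read 50.8 and 54.5 with NTC, 53.0 and 52.7 with shRNA 1, and 79.1 and 84.7 with shRNA 2. Only the shRNA 2 arrays stood above NTC (0.51 ± 0.10, limma adjusted p = 0.0039), and the hairpins differed by 0.51 ± 0.10 (limma adjusted p = 0.0053). ETV2, an endothelial regulator, rose with shRNA 1 (0.46 ± 0.13, limma adjusted p = 0.017), at 31.8 and 25.4 against 14.1 and 18.8 with NTC, which is near background. ELF1, named after its values were seen, fell by 0.24 ± 0.07 for the average (limma adjusted p = 0.032), a call that was lost when its probe sets were averaged (-0.05, adjusted p = 0.51). It was also lost without NTC replicate 1 (-0.17, limma adjusted p = 0.27), NTC replicate 2 (-0.30, 0.054), shRNA 1 replicate 2 (-0.21, 0.088) or shRNA 2 replicate 1 (-0.19, 0.065). With single arrays left out, ETV6 and FEV kept their calls against NTC. The averaged ELF2 call was lost without NTC replicate 1 (0.37, limma adjusted p = 0.054), and the shRNA 2 call of ELF2 without any of 5 arrays (lowest 0.17 without PRMT5 shRNA 2 replicate 2, adjusted p = 0.23). The averaged ELK3 call was lost without any array but PRMT5 shRNA 2 replicate 1 (0.22 to 0.30, adjusted p from 0.069 to 0.25). ETV2 lost its call without NTC replicate 1 (0.35, adjusted p = 0.12) or PRMT5 shRNA 1 replicate 1 (0.35, adjusted p = 0.12). The list's median log2 difference for the average was 0.04.

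**Figure D5:**
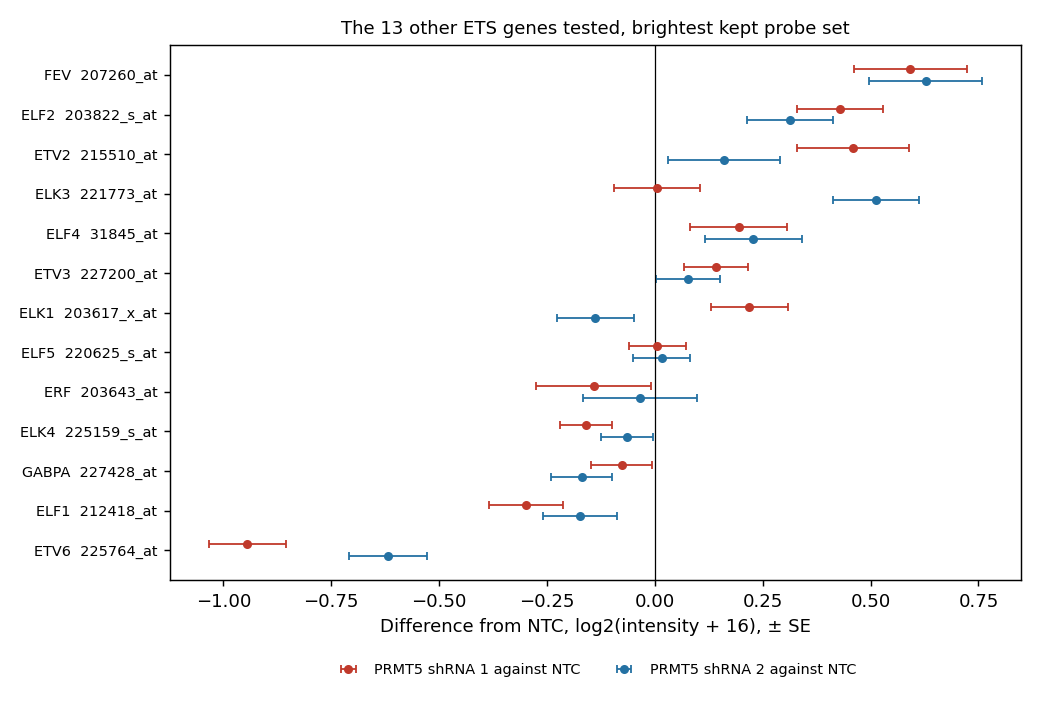
Log2 difference from NTC, with standard errors, of the 13 tested ETS genes outside the 10 members, for each PRMT5 hairpin. ETV6 lies lowest with both hairpins, at -0.94 and -0.62, FEV lies above 0 with both, and ELK3 separates the hairpins.

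Proteins that bind beside ETS factors or join them in complexes were counted next. Of 9 tested partners, 2 rose and 2 fell for the average, beside 15.4% and 17.0% of all genes. RUNX2, a Runt factor that pairs with ETS proteins on DNA, read 309.6 and 302.7 with NTC, 453.6 and 484.7 with PRMT5 shRNA 1, and 501.1 and 511.1 with PRMT5 shRNA 2. All knockdown arrays were above NTC, at 153% and 165% of its mean (0.64 ± 0.06 for the average, limma adjusted p = 1.54e-05). JUN, the AP-1 subunit, rose by 0.24 ± 0.08 (limma adjusted p = 0.044). HOXB13, the prostate homeobox factor, read 697.9 and 725.3, 515.8 and 506.2, and 717.6 and 617.7, with only the shRNA 1 arrays below all others (-0.47 ± 0.08, limma adjusted p = 0.00087). The fourth call was EWSR1, fused to ETS genes in Ewing sarcoma, at -0.20 ± 0.06 (limma adjusted p = 0.027), but it turned to 0.04 when its probe sets were averaged (adjusted p = 0.61). SRF fell with shRNA 1 (-0.21 ± 0.08, limma adjusted p = 0.048), a call lost without any 1 of the 4 arrays compared (-0.22 to -0.20, adjusted p from 0.14 to 0.18). The JUN call was lost without NTC replicate 2 (0.11, adjusted p = 0.43) and without 3 of the 4 knockdown arrays (0.19 to 0.25, adjusted p from 0.058 to 0.12). GABPB1, the partner of the ETS factor GABPA, was not called with either hairpin (0.12 and -0.13, limma adjusted p = 0.23 and 0.26).

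Among 13 genes that control ETS transcription or protein turnover, all tested, 5 fell and 0 rose for the average, beside 17.0% lower and 15.4% higher over all genes. With PRMT5 shRNA 1 the counts were also 5 and 0, beside 23.1% and 16.2%. With shRNA 2 they were 0 and 0 in limma, beside 8.39% and 13.1%, and 2 of the 13 had an unadjusted p under 0.05. For the average, the calls of all 5 (ATXN1, CIC, DDB1, ATXN1L and TMPRSS2) were lost without at least 1 NTC array (limma adjusted p from 0.054 to 0.55). CIC represses ETV1, ETV4 and ETV5, and ATXN1 and ATXN1L are its co-repressors. CIC read 125.3 and 137.6 with NTC, 87.4 and 97.8 with PRMT5 shRNA 1, and 100.3 and 121.0 with PRMT5 shRNA 2. The knockdown arrays were all below NTC, and only shRNA 1 was called (-0.44 ± 0.11, limma adjusted p = 0.0086; shRNA 2 -0.22 ± 0.11, adjusted p = 0.17). The shRNA 1 call was lost without NTC replicate 2 (-0.38, adjusted p = 0.067) or PRMT5 shRNA 1 replicate 1 (-0.37, adjusted p = 0.065). With shRNA 1 the log2 difference was -0.53 ± 0.10 for ATXN1 (limma adjusted p = 0.0023) and -0.43 ± 0.08 for ATXN1L (adjusted p = 0.0021).

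ETV1, ETV4 and ETV5, the targets of CIC, stayed at background in all of these arrays. TMPRSS2, whose promoter drives the fused ERG, read 1108.1 and 1341.2 with NTC, 966.1 and 1041.3 with shRNA 1, and 1133.0 and 1072.7 with shRNA 2. The shRNA 1 arrays were lowest (-0.28 ± 0.08, limma adjusted p = 0.024), a call lost without NTC replicate 2 (-0.14, adjusted p = 0.24) or PRMT5 shRNA 1 replicate 1 (-0.22, adjusted p = 0.14), and the shRNA 2 arrays overlapped NTC (-0.14 ± 0.08, adjusted p = 0.26). The difference of TMPRSS2 between the hairpins was not called (0.13 ± 0.08, limma adjusted p = 0.27). COP1, the ubiquitin ligase subunit that marks ETV1 and its relatives for degradation, was 97.4% and 97.9% of NTC and was not called (-0.04 ± 0.07 and -0.03 ± 0.07, limma adjusted p = 0.71 and 0.80). DDB1, an adaptor of the same ligase, fell with shRNA 1 (-0.47 ± 0.09, limma adjusted p = 0.0017).

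Of 9 genes linked to ERK signalling through CIC or the ETV1 subfamily, all tested, 3 rose and 2 fell for the average, beside 15.4% and 17.0% of all genes. SPRY4, a feedback inhibitor of growth factor receptor signalling, read 31.7 and 33.7 with NTC, 403.1 and 389.9 with PRMT5 shRNA 1, and 285.9 and 231.5 with PRMT5 shRNA 2. The 3 groups were fully apart, and shRNA 2 lay below shRNA 1 (-0.59 ± 0.10, limma adjusted p = 0.0033). The array's probes may not separate SPRY4 from an overlapping transcript. PHLDA1 read 69.7 and 60.2, 164.8 and 158.0, and 122.9 and 114.1, the same order (0.93 ± 0.09 for the average, limma adjusted p = 1.26e-05). SPRED1, a RAS pathway inhibitor, rose with shRNA 1 (0.62 ± 0.11, limma adjusted p = 0.0017) and not with shRNA 2 (0.005 ± 0.11, adjusted p = 0.98). Its paralogue SPRED2 fell for the average (-0.22 ± 0.07, limma adjusted p = 0.042), as did DUSP4, an ERK phosphatase (-0.36 ± 0.09, adjusted p = 0.010). The averaged calls of SPRED1, SPRED2 and DUSP4 were lost without either NTC array (limma adjusted p from 0.052 to 0.27), and those of SPRY4 and PHLDA1 were kept. The list's members thus moved both ways, with a median of 0.10 against -0.01 for all genes. In these bulk cultures fewer cells expressing a gene and less of its RNA per cell cannot be told apart.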

How the data were processed

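The members, gene lists and tests were chosen with earlier results of these data known. The submitters' processing notes name MAS5, without a version, as the source of the deposited intensities, which are linear; a detection call and a genome build are not stated there. Each deposited column had a mean of about 150 after 2% of values were trimmed at either end, and was used as deposited. Unmatched value columns numbered 0. Groups and replicate numbers came from the sample titles.

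By the platform's annotation 41091 probe sets carried 1 symbol, 1801 several and 11721 none. Only the first class was tested, without the 62 control probe sets. Matching by Entrez ID to RefSeq (GRCh38.p14) succeeded for 41037 and changed 0 symbols.

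The transform was log2(intensity + 16), which understates changes of dim genes. A limma 3.58.1 model (R 4.3.3) took a mean per group over all 6 arrays, with eBayes and an intensity trend, 3 residual degrees of freedom and prior degrees of 7.89 (genes) and 7.95 (probe sets). The 4 two-sided contrasts were both hairpins averaged, each hairpin against NTC, and shRNA 2 against shRNA 1. Precision is limited by the number of arrays, and replicates differed by a median SD of 0.081 (log2). Besides the members, up to 5 genes per list with the largest averaged difference were named, plus genes tied to a member by role (TMPRSS2, CIC, COP1, GABPB1). ELF1 and the genes between ERG and TMPRSS2 were added after their values were seen. Of the partner list, 3 genes are not reported here. The averaged contrast was tested on simulated data for the 12413 genes with 200 planted changes. It found 59.7% of those of size 0.5 (log2) and 97.0% of those of size 1, and 6.04% of its calls were false. The probe set fit found 41.8% and 86.6% of these sizes for that contrast. The simulation drew independent noise and planted far fewer changes than the 32.4% of genes called here. Its rates therefore do not carry over to these data. Alternatives covered the pseudocount, scaling, filters, probe set choice, prior variance, pooled hairpins, a replicate block and each array left out.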

Additional observations from a re-analysis of the deposited data

Results flagged for a closer look

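The following differed between the hairpins in a direct test of PRMT5 shRNA 2 against PRMT5 shRNA 1 (limma, adjusted p under 0.05). Among the members these were ERG (0.38) and ELF3 (0.37) on their brightest probe sets. In order of brightness, the second, the third and the fourth ERG probe set stood 0.43, 0.50 and 0.35 higher with shRNA 2, and the second ELF3 probe set 0.37 higher. The second to the fifth EHF probe set stood at -0.38, -0.37, -0.54 and -0.47. Among the other ETS genes ETV6 differed by 0.33 and ELK3 by 0.51. Among the partners HOXB13 differed by 0.37, EWSR1 by 0.25 and GABPB1 by -0.26, the last with neither hairpin called against NTC. Of the control and turnover genes DDB1 and ATXN1L each differed by 0.43. Of the ERK response genes SPRY4 differed by -0.59, PHLDA1 by -0.40 and SPRED1 by -0.61.

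The hairpins also differed in the PRMT5 transcript left, 15.9% and 36.2% of NTC, and in the ACTB 3' to 5' ratio. Their part in these differences was not tested.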

How the results depend on the processing

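With 2 arrays per group, leaving 1 out lets the lone sample borrow the spread of the other groups. Leaving out each array in turn gave 2180 to 4254 genes called for the average (4016 with all arrays), 3183 to 5297 with shRNA 1 (4879), 1551 to 2450 with shRNA 2 (2661) and 1327 to 2834 between the hairpins (3192). Called member genes then numbered 2 to 4, 3 to 4, 2 to 3 and 2 to 3, and member probe sets 6 to 17, 13 to 18, 3 to 8 and 7 to 11. With both hairpins as 1 group of 4 arrays, 1501 genes, 2 member genes and 5 member probe sets were called for the average. Without the probe sets marked for shared or cross-hybridising probes, 4, 6, 2 and 4 member probe sets were called, SPDEF had no value, and with no filter on dim probe sets shRNA 2 gave 5. The share of all probe sets called under either filter is not given here.

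ETS2 and SPDEF kept their calls with each hairpin, and ERG with shRNA 1, under each alternative that gave the gene a value for that hairpin. SPDEF had none without the marked probe sets, and the pooled fit does not separate the hairpins. Signs changed chiefly in differences near 0. With single arrays left out, ERG with shRNA 2 ranged from -0.058 to 0.023, the second ERG probe set from -0.054 to 0.021 and the third from -0.17 to 0.019. The second EHF probe set with shRNA 2 ranged from -0.051 to 0.026, the third from -0.070 to 0.057 and the fourth from -0.035 to 0.067. Between the hairpins SPDEF ranged from -0.00022 to 0.14, the third SPDEF probe set from -0.055 to 0.19, the fourth from -0.26 to 0.071 and the fifth from -0.11 to 0.12, and the third ELF3 probe set from -0.088 to 0.17. After quantile normalization EHF was -0.0097 with shRNA 1 and 0.038 between the hairpins, and the fifth SPDEF probe set -0.027 between them. With probe sets averaged, ELF3 was 0.074 for the average of both hairpins, ETV6 -0.11 between the hairpins, and EWSR1 0.043 for the average, 0.077 with shRNA 1 and -0.068 between the hairpins. Without the marked probe sets EWSR1 was 0.24, 0.35 and -0.21. The cause of these changes was not tested.

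Same-numbered replicates did not deviate together (r = -0.09, -0.18 and -0.0045 for the group pairs). The labels do not state whether same-numbered samples were handled together, and these values cannot settle it. With the replicate block 3705, 4559, 2435 and 2829 genes were called for the average, shRNA 1, shRNA 2 and between the hairpins, member genes were 4, 4, 3 and 2, and member probe sets 15, 17, 8 and 10.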

Other observations

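ERG and TMPRSS2 lie on chromosome 21 with 16 protein-coding genes between them in the RefSeq gene order, ETS2 the nearest to ERG, and the fusion can arise by loss of that interval. The interval was chosen after earlier results were known, and its genes are given as values. Of the 16, 12 were tested, ETS2 included. Of the other 11, 7 were called for the average of both hairpins, 5 higher and 2 lower, where 32.4% of all genes were called. With PRMT5 shRNA 1 they were 9 (7 higher, 2 lower; 39.3% of all genes) and with shRNA 2 they were 4 (3 higher, 1 lower; 21.4% of all genes). PCP4, a calmodulin regulator, read 234.5 and 253.1 with NTC, 454.1 and 492.8 with shRNA 1, and 673.3 and 780.4 with shRNA 2. The 3 groups did not overlap, and the gene rose (1.21 ± 0.07 for the average, limma adjusted p = 5.09e-07). IGSF5, an immunoglobulin superfamily protein, read 237.9 and 258.0, 324.8 and 283.8, and 429.0 and 444.9, also with no overlap (0.53 ± 0.07, limma adjusted p = 0.00031). B3GALT5, a galactosyltransferase, read 511.6 and 485.8, 282.4 and 276.4, and 426.8 and 403.6, and was lowest with shRNA 1 (-0.53 ± 0.06 for the average, limma adjusted p = 8.76e-05). Genes of the interval were detected in these cells, and those called moved both ways. The arrays read transcript from any copy of a gene, so detection does not show whether a copy of the interval was lost.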
